A study of Homo sapiens with 6 samples.

Results

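The CEP genes encode centrosomal proteins numbered by approximate size. They were taken by symbol, as every gene with single-gene probe sets whose array annotation symbol is CEP followed by digits, with or without a final L. This gave 33 genes of the 19777 measured, read by 102 of 54613 probe sets. No gene was left out for low signal. The family was picked with results of the same contrast known, so the counts below describe it and nothing is read from them.

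MDA-MB-231 is a human breast cancer cell line. Its cells had been transfected with small interfering RNA (siRNA) that targets SDC1, the gene of the cell surface proteoglycan syndecan-1, or with negative control siRNA. There were 3 arrays for the SDC1 siRNA and 3 for the control siRNA, described in the series design as independent replicates. Both groups were transfected, and untransfected cells were not analysed here. The labels give no siRNA sequence, dose or time after transfection.

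The centrosome is a pair of centrioles in a protein matrix that nucleates microtubules. Centrioles duplicate once in each cell cycle, the old pair is held together by a linker until mitosis, and in resting cells the older centriole docks at the membrane and grows a primary cilium. CEP proteins serve all of these steps, as builders of the centriole, as linker and anchoring proteins, as parts of the cilium base and of the mobile granules called satellites, and in the final separation of daughter cells.

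Promoters are shown for 4 genes, chosen after their values were seen: CEP19 and CEP135, which fell most, CEP55, the abscission gene, and CEP72, which rose. The promoters of CEP250, CEP78 and CEP15 were not used here. Each sequence covers 250 bases before and 50 bases after the start of the gene, 5′ to 3′ on the gene's strand, from RefSeq on GRCh38.p14. The windows are chr3:196712201-196712500 (minus strand) for CEP19, chr4:55948695-55948994 (plus strand) for CEP135, chr10:93496362-93496661 (plus strand) for CEP55 and chr5:612090-612389 (plus strand) for CEP72. Capitals mark matches, on either strand, to 5 short motifs that were also chosen after the values were seen.
CEP19: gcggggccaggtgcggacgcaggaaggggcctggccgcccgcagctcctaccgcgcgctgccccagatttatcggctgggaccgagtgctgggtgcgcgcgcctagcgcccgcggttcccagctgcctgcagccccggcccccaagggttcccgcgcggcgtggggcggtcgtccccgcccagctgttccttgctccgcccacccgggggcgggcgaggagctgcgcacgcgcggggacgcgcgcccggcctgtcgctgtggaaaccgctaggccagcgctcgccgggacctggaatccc
CEP135: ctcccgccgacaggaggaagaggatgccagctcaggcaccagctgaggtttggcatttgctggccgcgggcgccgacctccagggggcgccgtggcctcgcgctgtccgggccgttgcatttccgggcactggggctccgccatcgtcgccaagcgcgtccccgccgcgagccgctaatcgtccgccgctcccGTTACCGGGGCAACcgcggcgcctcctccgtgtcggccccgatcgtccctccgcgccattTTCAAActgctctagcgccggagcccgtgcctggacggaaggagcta
CEP55: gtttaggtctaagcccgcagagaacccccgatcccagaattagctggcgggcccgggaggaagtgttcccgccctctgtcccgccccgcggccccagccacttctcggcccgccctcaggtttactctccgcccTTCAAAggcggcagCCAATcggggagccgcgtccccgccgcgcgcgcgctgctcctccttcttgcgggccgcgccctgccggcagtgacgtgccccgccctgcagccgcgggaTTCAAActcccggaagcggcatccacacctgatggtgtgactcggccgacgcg
CEP72: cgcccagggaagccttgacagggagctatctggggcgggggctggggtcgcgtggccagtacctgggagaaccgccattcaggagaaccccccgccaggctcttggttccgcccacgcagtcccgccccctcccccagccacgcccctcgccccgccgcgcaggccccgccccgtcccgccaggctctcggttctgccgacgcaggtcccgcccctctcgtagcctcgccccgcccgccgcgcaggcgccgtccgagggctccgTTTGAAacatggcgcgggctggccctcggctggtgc

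The motifs were TTTGAA (the cell cycle homology region, CHR), CCAAT (the CCAAT box), TTTNNCGC (an E2F site), GTTNCCNNGGNAAC (the X-box read by RFX factors of ciliated cells) and GTTGCC (a partial X-box). CEP135 held the only full X-box among the promoters of 30 CEP genes that the table lists, at bases 194 to 207 of its window, and the partial X-box at bases 202 to 207 lies within it. Of all 35116 promoters, 0.49% held this motif. CEP135 also held a CHR on the minus strand at bases 254 to 259. CEP55 held 2 CHR matches on the minus strand and 1 CCAAT box, CEP72 held 1 CHR at bases 265 to 270, and none of the 5 motifs was found in the window of CEP19.

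At least 1 CHR was found in 14 of the 30 genes (46.7%), against 18.2% of all 27305 genes in the table. These 27305 include genes not measured on the arrays, and shares among the measured genes are not given here. The partial X-box was found in 11 CEP genes (36.7%, against 14.6% of all genes), the E2F site in 8 (26.7%, against 8.23%) and the CCAAT box in 17 (56.7%, against 39.7%). The CHR was present in 7 of 13 genes that fell, in 1 of 1 that rose and in 6 of 16 with no call. The CCAAT box was present in 7 of the 13 and 10 of the 16. For the E2F site these counts were 3 and 5, and for the partial X-box 5 and 6. The gene that rose held none of these 3 motifs. A link between a motif and the direction of change was not tested. A match of letters is a description of the window and not evidence of a bound factor.

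Each deposited log2 value is centred on its probe set's median across the 6 arrays, and so carries differences between arrays and no level. A gene's value is the mean of its probe sets in its brightest signal class, and its log2 fold change is SDC1 siRNA minus control siRNA from limma, with the standard error (SE) and the p adjusted over all genes. A gene is said to have fallen or risen where that p is under 0.05. SDC1, the targeted gene, measured -1.14, -1.16 and -1.43 on the SDC1 siRNA arrays, against 1.13, 1.32 and 1.09 on the control siRNA arrays. Its log2 fold change was -2.42 (SE 0.097). Spike-in controls part the arrays into 2 sets that each hold both groups, and values within the sets follow the gene-by-gene account.

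After SDC1 silencing 13 CEP genes fell, 3 rose and 17 did not pass the test. The called share was 48.5%, and 28.1% of all genes were called. Calls to lower values made up 15.1% of all genes and calls to higher values 13.0%. For 21 of the 33 CEP genes the values of the groups did not overlap, against 41.8% of all genes. The median log2 fold change was -0.16 over the CEP genes and 0.00 over all genes. Most of the changes were small. CEP19 and CEP135 passed the test with a change of 1.5-fold or more, 2 of the 33 CEP genes. Among all genes 1386 of 19777 did so.

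Brightness bears on these shares. The signal class, read from the numeric step of the values, put 26 of the CEP genes at a log2 level of 8 to 16, where 14 were called (53.8%), against 41.0% of all genes in that class. At a log2 level of 4 to 8, 2 of 6 CEP genes were called, against 19.9% of all genes there. The only CEP gene in the dimmest class was CEP44, which was not called. In RNA from whole cultures, fewer cells of a kind and less RNA per cell cannot be told apart.

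**Figure D1:**
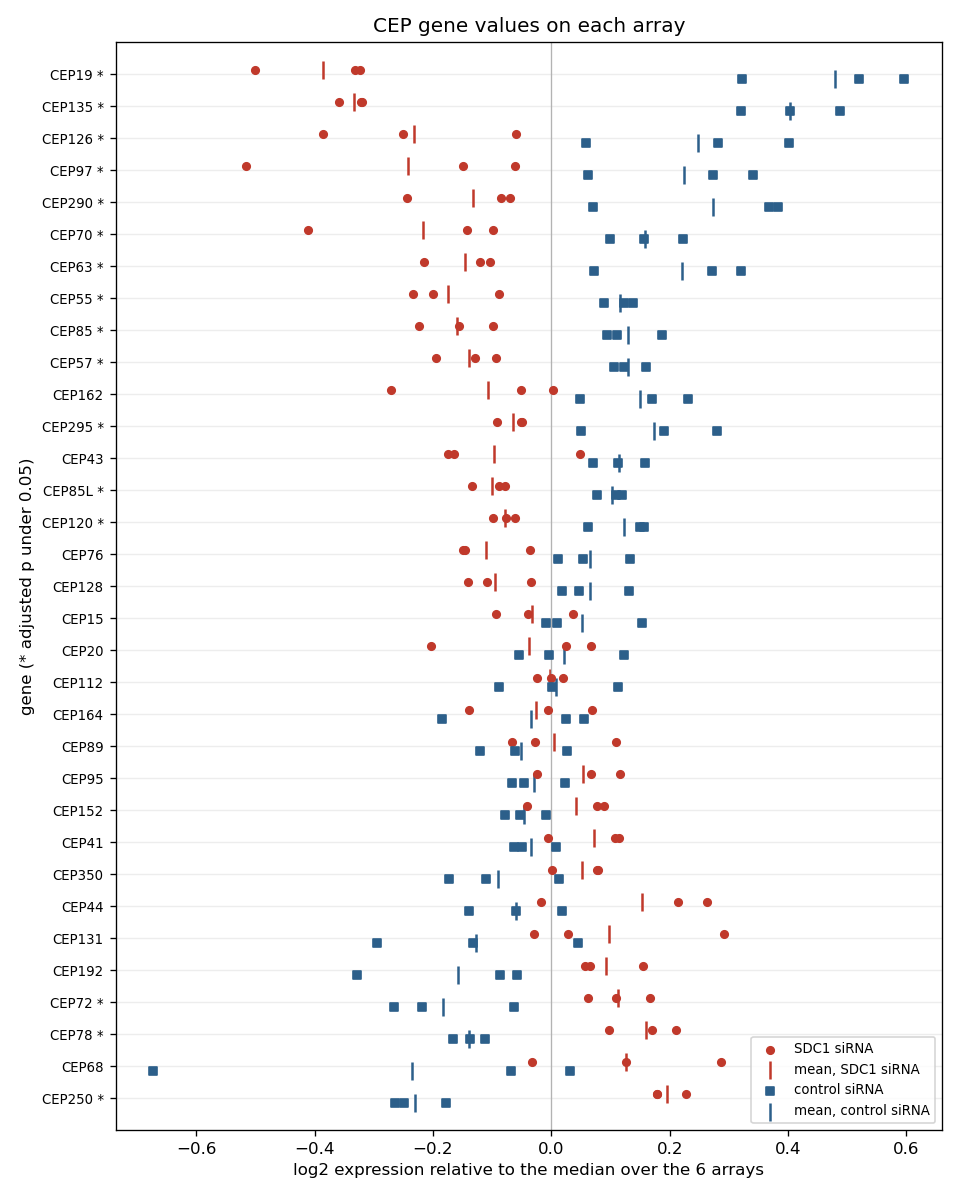
Log2 expression of each CEP gene relative to its median over the 6 arrays (x axis), for the SDC1 siRNA arrays (circles, n = 3) and the control siRNA arrays (squares, n = 3), with the group means as vertical ticks and genes ordered by fold change. CEP19 and CEP135 show the widest gaps to the lower side and CEP250 the clearest gap to the higher side, and the groups of the genes in the middle rows overlap.

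Among the 12 genes that build the centriole or set its length, 7 fell, 1 rose and 4 did not pass the test, with a median log2 fold change of -0.22. The called share was 66.7%, against 28.1% of all genes and 41.0% of all genes in the brightest class. Differences between the role groups were not tested. CEP135, a protein of the cartwheel that gives the centriole its symmetry, measured -0.36, -0.32 and -0.32 on the SDC1 siRNA arrays, against 0.49, 0.40 and 0.32 on the control siRNA arrays. All silenced arrays lay far below all control arrays, and the silenced ones were nearly equal. It fell, with a log2 difference of -0.74 (SE 0.064, adjusted p = 7.42e-05), or 1.67-fold lower. This rests on the bright probe set, since the dim one gave -0.02 (adjusted p = 0.944) and the average of both gave -0.38.

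CEP63 and CEP57 form a ring around the parent centriole with CEP152, the scaffold for the duplication kinase PLK4. CEP63 measured -0.12, -0.21 and -0.10 on the SDC1 siRNA arrays and 0.32, 0.07 and 0.27 on the control siRNA arrays. The groups were apart, with control replicate 2 nearest to the silenced arrays, and the log2 fold change was -0.37 (SE 0.079, adjusted p = 0.00822). CEP57 measured -0.09, -0.19 and -0.13 on the SDC1 siRNA arrays and 0.11, 0.12 and 0.16 on the control siRNA arrays. Its groups were apart and tight, with a log2 difference of -0.27 (SE 0.059, adjusted p = 0.00893), and its 5 probe sets gave values from -0.40 to -0.18. CEP152 itself gave 0.09 (adjusted p = 0.354), with overlapping groups.

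CEP85 binds the centriole assembly protein STIL. It measured -0.22, -0.16 and -0.10 on the SDC1 siRNA arrays, against 0.11, 0.19 and 0.09 on the control siRNA arrays. The groups were apart, and its probe sets gave -0.35 and -0.23. Its log2 fold change was -0.29 (SE 0.062, adjusted p = 0.00844).

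CEP97 caps the growing end of the centriole together with CCP110. It measured -0.15, -0.52 and -0.06 on the SDC1 siRNA arrays and 0.06, 0.27 and 0.34 on the control siRNA arrays. Silenced replicate 2 lay well below its own group, and control replicate 1 came close to the silenced arrays. The log2 fold change of -0.47 (SE 0.12, adjusted p = 0.0225) lost its call without control replicate 2 (-0.44, adjusted p = 0.0662) and without control replicate 3 (-0.41, adjusted p = 0.0754). It was also lost with cross-hybridising probe sets included (-0.33, adjusted p = 0.0707).

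CEP295, needed for a new centriole to become a centrosome, and CEP120, which lengthens centrioles, fell by less. CEP295 measured -0.05, -0.05 and -0.09 on the SDC1 siRNA arrays and 0.05, 0.19 and 0.28 on the control siRNA arrays, with a fitted difference of -0.24 (SE 0.072, adjusted p = 0.0374). CEP120 measured -0.06, -0.08 and -0.10 on the SDC1 siRNA arrays and 0.15, 0.06 and 0.16 on the control siRNA arrays, with a fitted difference of -0.20 (SE 0.058, adjusted p = 0.0317). The groups of both genes were apart, with the nearest arrays at -0.05 and 0.05 for CEP295 and at -0.06 and 0.06 for CEP120. The CEP295 call was lost on leaving out any array but control replicate 1 (-0.18 to -0.24, adjusted p between 0.0845 and 0.111). Averaging its 4 probe sets ended the call too (-0.07, adjusted p = 0.433), and it was lost with the class read from 6 arrays (-0.11, adjusted p = 0.213) and with the spike-in set as a block (-0.21, adjusted p = 0.0777). Single CEP295 probe sets ranged from -0.39 to 0.30. The CEP120 call was lost on leaving out any array but control replicate 2 (-0.18 to -0.21, adjusted p between 0.0753 and 0.0901).

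CEP78, a centriole protein mutated in a form of cone-rod dystrophy with hearing loss, was the member of this group that rose. It measured 0.17, 0.10 and 0.21 on the SDC1 siRNA arrays, against -0.11, -0.14 and -0.17 on the control siRNA arrays. All silenced arrays lay above all control arrays. CEP78 rose, with a log2 difference of 0.30 (SE 0.059, adjusted p = 0.0058), and its 3 probe sets gave 0.64, 0.37 and 0.23. CEP192, which recruits PLK4, Aurora A and the pericentriolar matrix, gave 0.25 (adjusted p = 0.0542), or 0.30 (adjusted p = 0.0462) without control replicate 3. CEP76, which limits repeated duplication, gave -0.18 (adjusted p = 0.0771), with groups that did not overlap.

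CEP44, which acts in the same conversion step as CEP295, depended on its probe sets. Its value of 0.21 (adjusted p = 0.106) rests on 1 dim probe set, and reached 0.30 (adjusted p = 0.0228) without silenced replicate 3. Its other probe sets are marked as cross-hybridising and gave -0.34 (adjusted p = 0.0296) and -0.28 (adjusted p = 0.0451). No direction can be given for CEP44.

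**Figure D2:**
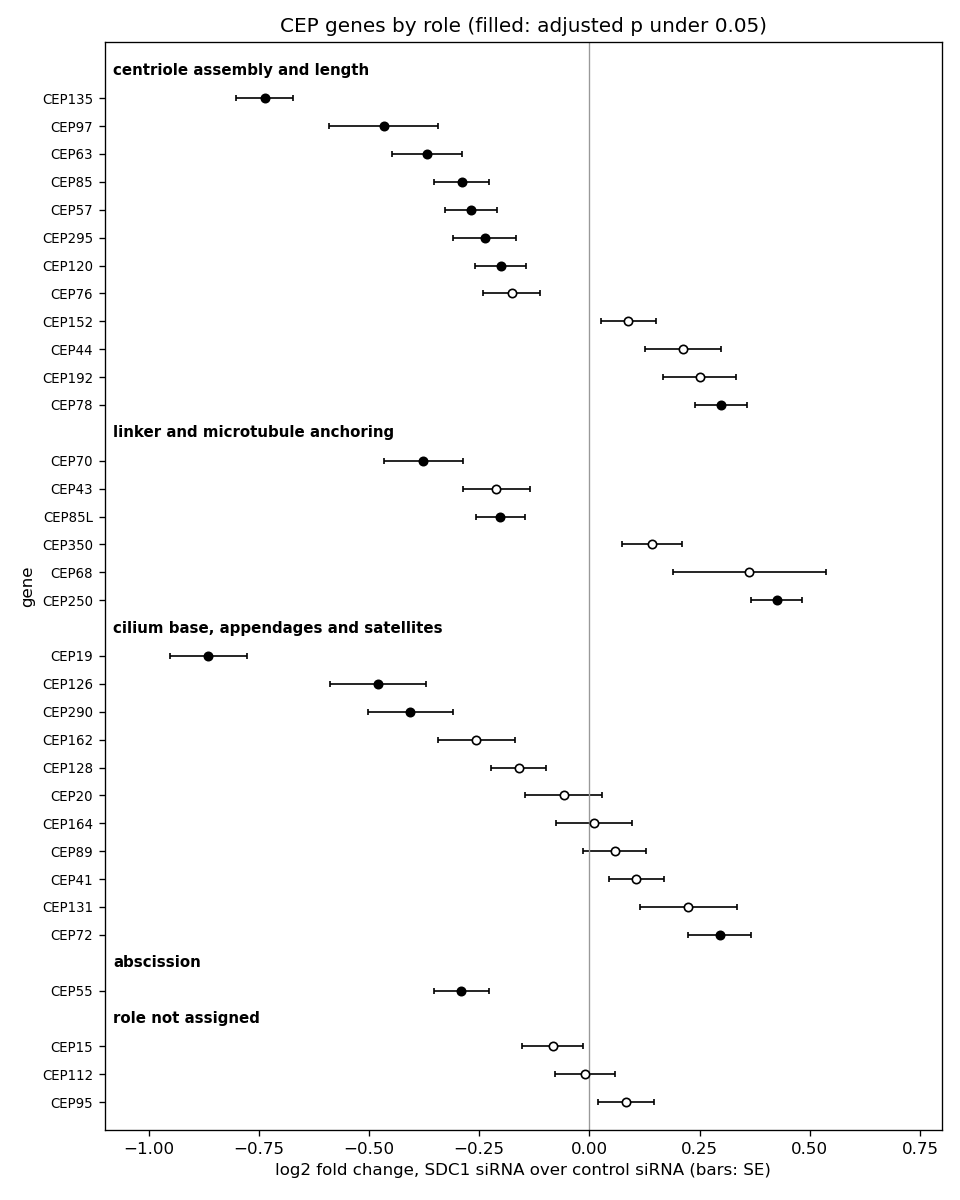
Log2 fold change of each CEP gene, SDC1 siRNA over control siRNA (x axis, bars: SE of the limma fit), grouped by role, with filled points for genes whose adjusted p is under 0.05. In the centriole assembly group 7 filled points lie left of 0 and CEP78 right of it, and the linker group has filled points on both sides.

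Among the 6 linker and microtubule anchoring genes, 2 fell, 1 rose and 3 did not pass the test, with a median log2 fold change of -0.03. The called share was 50%, against 28.1% of all genes and 41.0% of all genes in the brightest class. CEP250, also called C-Nap1, is the main fibre protein of the linker between centrioles. It measured 0.18, 0.23 and 0.18 on the SDC1 siRNA arrays, against -0.18, -0.25 and -0.26 on the control siRNA arrays. The groups were well apart and each was tight. Its log2 fold change of 0.43 (SE 0.058, adjusted p = 0.000766), or 134% of the control signal, was the highest of the family. Its 3 probe sets gave 0.43, 0.32 and 0.04.

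CEP68, another linker protein, gave 0.36 (adjusted p = 0.168). Control replicate 3, at -0.67, stood far below the other control arrays, at -0.07 and 0.03, and the silenced arrays overlapped with those. Without control replicate 3 the value was 0.14 (adjusted p = 0.363). The mean over all 5 CEP68 probe sets, which ranged from 0.08 to 0.36, was 0.23 (adjusted p = 0.0325).

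CEP70, which binds gamma-tubulin, and CEP85L, a relative of CEP85 mutated in a form of lissencephaly, fell. CEP70 measured -0.10, -0.41 and -0.14 on the SDC1 siRNA arrays, against 0.10, 0.16 and 0.22 on the control siRNA arrays. Silenced replicate 2 was the lowest, and the groups did not overlap. The log2 fold change was -0.38 (SE 0.090, adjusted p = 0.0135), and the average of all 5 probe sets was -0.18. CEP85L measured -0.08, -0.09 and -0.13 on the SDC1 siRNA arrays, against 0.12, 0.11 and 0.08 on the control siRNA arrays. The groups were apart and tight around a small log2 difference of -0.20 (SE 0.056, adjusted p = 0.0259). The CEP85L call was lost on leaving out any array but control replicate 3 (-0.19 to -0.21, adjusted p between 0.0611 and 0.0736).

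CEP350 and CEP43, also called FOP, anchor microtubules at the centrosome and recruit CEP19. CEP350 gave 0.14 (adjusted p = 0.167), and its groups overlapped. CEP43 gave -0.21 (adjusted p = 0.0721), or -0.28 (adjusted p = 0.0172) without silenced replicate 3. Its probe sets were called in both directions: -0.49 and -0.36 for a pair of them, and 0.37 for the one marked as cross-hybridising.

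Among the 11 genes of the cilium base, the centriole appendages and the satellites, 3 fell, 1 rose and 7 did not pass the test, with a median log2 fold change of -0.06. The called share was 36.4%, against 28.1% of all genes and 41.0% of all genes in the brightest class. CEP19, which brings the small GTPase RABL2 to the cilium base, changed most of all CEP genes. It measured -0.33, -0.32 and -0.50 on the SDC1 siRNA arrays, against 0.60, 0.52 and 0.32 on the control siRNA arrays. The lowest control array was still far above the highest silenced array. The group means were -0.39 ± 0.10 after SDC1 siRNA and 0.48 ± 0.14 after control siRNA (SD, n = 3 each). The log2 fold change of -0.86 (SE 0.087, adjusted p = 0.000163) left 54.9% of the control signal, and its probe sets gave -0.95 and -0.78.

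CEP126, a protein of the centrosome and the cilium base, measured -0.06, -0.25 and -0.39 on the SDC1 siRNA arrays, against 0.40, 0.28 and 0.06 on the control siRNA arrays. Each group spread widely, without overlap. CEP126 fell, with a log2 difference of -0.48 (SE 0.11, adjusted p = 0.0112), and its 3 probe sets gave values from -0.48 to -0.28.

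CEP290 is a gatekeeper of the ciliary transition zone and a cause of Joubert syndrome and retinal degeneration. It measured -0.24, -0.08 and -0.07 on the SDC1 siRNA arrays, against 0.37, 0.07 and 0.38 on the control siRNA arrays. Control replicate 2 lay nearer to the silenced arrays than to its own group. The log2 fold change was -0.41 (SE 0.096, adjusted p = 0.0133), or -0.35 (adjusted p = 0.0502) without silenced replicate 1. Its dimmer probe sets gave -0.15 and 0.02, and the average of all 3 was -0.18 (adjusted p = 0.197).

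CEP72, a satellite protein that helps place CEP290, differed in the opposite direction from CEP290. It measured 0.11, 0.17 and 0.06 on the SDC1 siRNA arrays, against -0.06, -0.22 and -0.27 on the control siRNA arrays. The groups were apart, and the log2 fold change was 0.30 (SE 0.072, adjusted p = 0.0146). The call was lost without silenced replicate 2 (0.27, adjusted p = 0.0563) and without control replicate 3 (0.25, adjusted p = 0.0503). CEP131, another satellite protein, gave 0.22 (adjusted p = 0.179), with overlapping groups.

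The remaining cilium genes did not pass the test. CEP162, which ties the transition zone to microtubules, gave -0.26 (adjusted p = 0.0598), or -0.31 (adjusted p = 0.0475) without silenced replicate 3. Its probe sets gave -0.51 (adjusted p = 0.0107) and 0.00. CEP164 and CEP89, of the distal appendages that dock the centriole at the membrane, gave 0.01 and 0.06, and CEP128, of the subdistal appendages, gave -0.16. CEP20, a relative of FOP, gave -0.06, and CEP41, a Joubert syndrome protein that acts in tubulin glutamylation, gave 0.11. The adjusted p of these 5 genes ranged from 0.0954 to 0.95.

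CEP55 recruits the membrane-cutting machinery to the midbody, the bridge between dividing cells. It measured -0.20, -0.23 and -0.09 on the SDC1 siRNA arrays, against 0.09, 0.12 and 0.14 on the control siRNA arrays. The groups were apart, and the control arrays were nearly equal. CEP55 fell, with a log2 difference of -0.29 (SE 0.062, adjusted p = 0.00842), from its only probe set. CEP112, CEP95 and CEP15, for which no role was assigned, gave -0.01, 0.08 and -0.08 with overlapping groups.

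Probe sets of a gene did not always move together. Fitted one by one, 24 of the 102 probe sets were lower and 8 higher, which is 31.4%, against 19.8% of all probe sets. By signal class, 16 of 44 bright, 16 of 48 middle and 0 of 10 dim ones were called. All probe sets of a gene were below 0 in 12 genes and above 0 in 8 genes. CEP41 and CEP43 had probe sets called in both directions: for CEP41 the lowest gave -0.44 (adjusted p = 0.00359) and the highest 0.33 (adjusted p = 0.0206). In all, 6 genes that were not called held a called probe set, such as the lowest of the CEP89 probe sets at -0.52 (adjusted p = 0.00668). Conversely CEP85L and CEP120 were called although no probe set of theirs was called in the fit over all probe sets. The annotation used here does not say which transcripts each probe set reads.

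**Figure D3:**
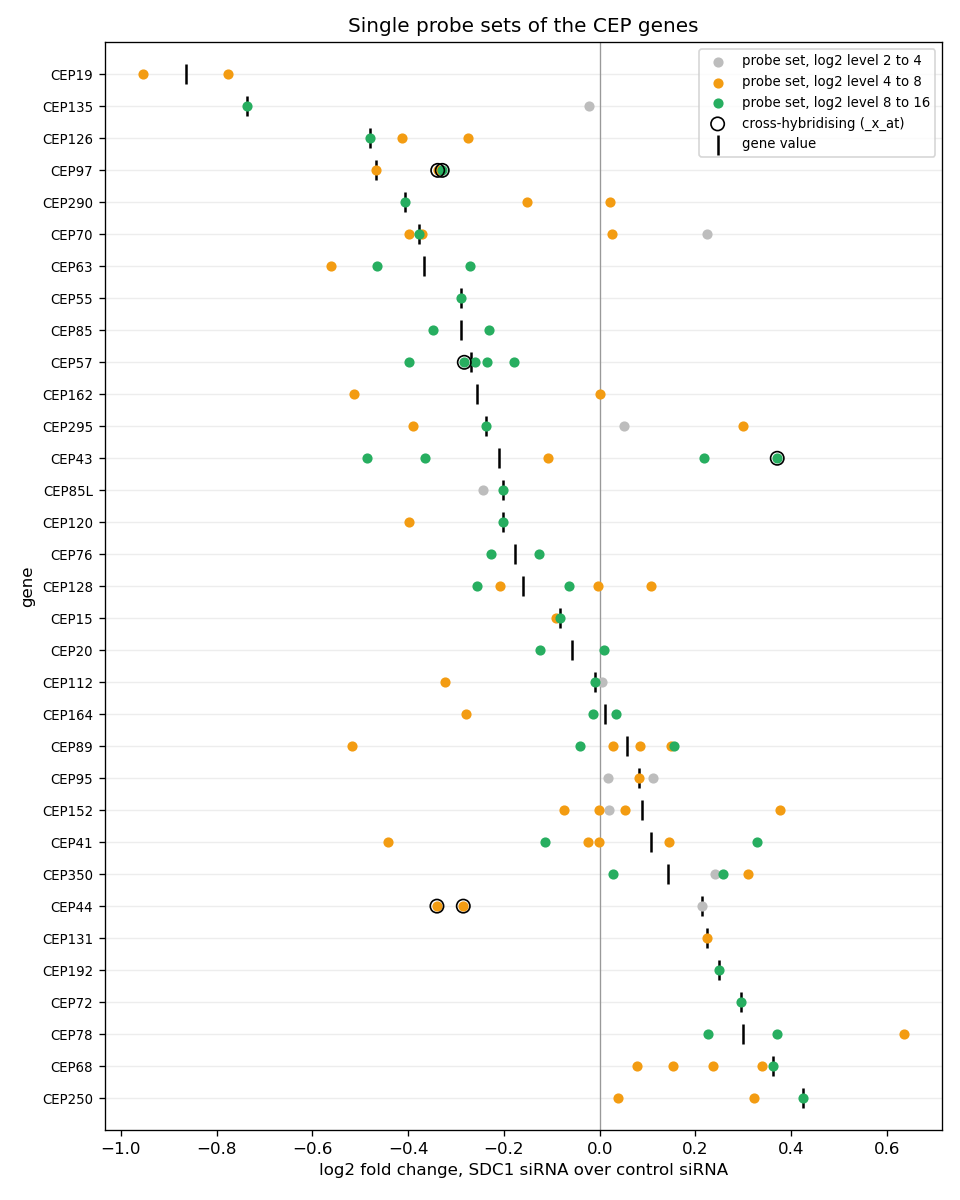
Log2 fold change, SDC1 siRNA over control siRNA (x axis), of every CEP probe set, coloured by signal class, with cross-hybridising probe sets circled and the gene's value as a black tick. The points of CEP57, CEP63 and CEP19 lie on the lower side, whereas those of CEP41, CEP43, CEP89 and CEP44 lie on both sides of 0.

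The labelled groups were not the only way in which the arrays differed. Poly-A spike-in controls, RNAs added before labelling, averaged 0.39 to 0.68 (log2) on silenced replicates 1 and 2 and control replicate 1 (set 1), and -0.47 to -0.43 on silenced replicate 3 and control replicates 2 and 3 (set 2). Within each set the groups can be compared, with only 3 arrays. For a gene whose groups do not overlap over the 6 arrays, as for all 16 called CEP genes, the sign within a set is fixed by that, so only the sizes are given. CEP19 gave -0.92 in both sets, CEP135 gave -0.83 and -0.68, and CEP250 gave 0.38 and 0.43, in set 1 and set 2 in that order. Among called genes the sizes differed most for CEP290, with -0.53 and -0.30, and for CEP295, with -0.10 and -0.33. Of the 17 genes that were not called, CEP20, CEP112 and CEP164 had opposite signs in the sets.

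**Figure D4:**
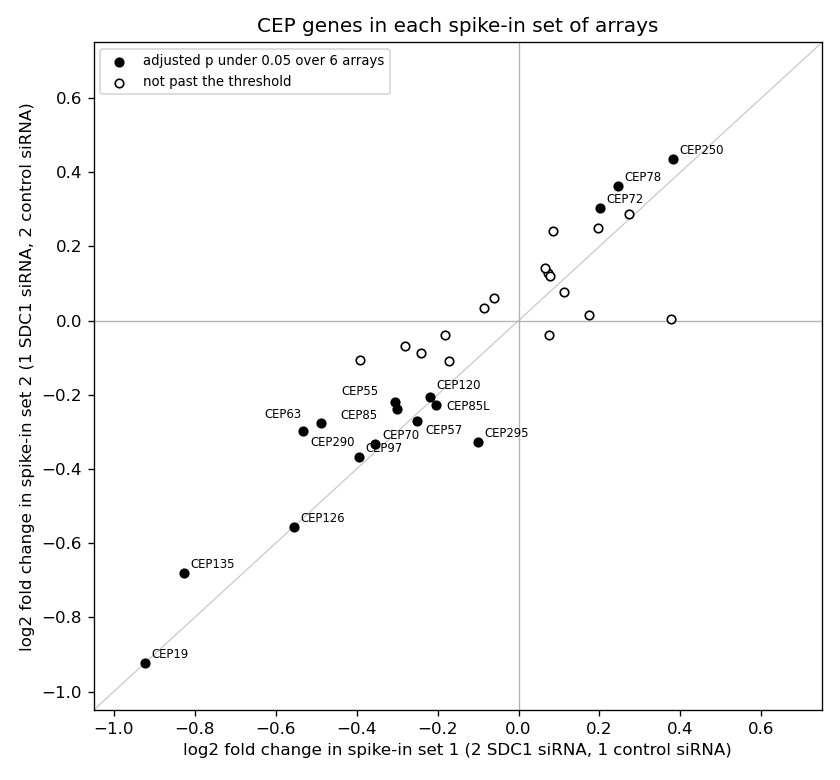
Log2 fold change of each CEP gene, SDC1 siRNA over control siRNA, within the 3 arrays of spike-in set 1 (x axis) and the 3 arrays of spike-in set 2 (y axis), with genes called over all 6 arrays filled and named. CEP19 and CEP135 lie lowest on both axes, and CEP290 and CEP295 are the filled points whose sizes differ most between the axes.

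Other genes of the centrosome and cilium were taken from 9 lists, of which 123 of 131 genes were measured. Of these 30 fell and 22 rose (42.3%), and their median log2 fold change was -0.01, against 28.1% and 0.00 for all genes. Most list genes, 86, were in the brightest signal class, where 39 were called (45.3%), against 41.0% of all genes of that class. Among 16 centriole assembly genes 5 fell and 1 rose (median -0.14), including the cartwheel protein SASS6 (-0.32, adjusted p = 0.0052), POC1B (-0.37, adjusted p = 0.00359), CETN2 (-0.24) and TUBD1 (-0.41). The 13 pericentriolar and gamma-tubulin genes had 2 that rose, TUBGCP4 (0.28) and MZT2B (0.31), and none that fell. In the list of 12 linker and mother centriole genes, NIN, of the subdistal appendages (0.56, adjusted p = 0.000257), and its relative NINL (0.83, adjusted p = 0.000346) rose, while ODF2 (-0.50, adjusted p = 0.000604) and the linker-releasing kinase NEK2 (-0.22, adjusted p = 0.0219) fell.

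Larger changes than any in the CEP family stood among cilium genes. In the list named for the satellites, 4 of 9 genes rose and 3 fell (77.8%). This and the next shares stand against 28.1% of all genes and 41.0% of all genes in the brightest signal class. BBS4 gave -0.88 (adjusted p = 8.51e-05), PCM1, the satellite scaffold, -0.39 (adjusted p = 0.00186), KIAA0586 -0.35 and SSX2IP 0.40. In the list named for the transition zone, 5 of 16 genes fell and 3 rose (50%). INVS gave -1.16 (adjusted p = 5.29e-06), RPGRIP1L 1.15 (adjusted p = 8.8e-06), NPHP4 -0.40 and TCTN1 0.30. Among 19 intraflagellar transport genes 6 fell and 5 rose (57.9%), including IFT46 (-0.67, adjusted p = 6.22e-05), IFT20 (-0.59), IFT74 (-0.60) and WDR35 (0.51). The augmin complex, which branches spindle microtubules, had 2 of 7 genes that fell (28.6%, close to the share of all genes), HAUS5 (-0.30) and HAUS7 (-0.21).

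CEP55 can be read beside the cell division genes. Of 12 cytokinesis and abscission genes 4 fell and 2 rose (50%). Of all genes 28.1% were called, and of those in the brightest signal class 41.0%. VPS4B, the ATPase of the membrane-cutting machinery (-0.94, adjusted p = 2.35e-05), ECT2 (-0.46) and TSG101 (-0.27) fell, and PRC1, a bundler of midzone microtubules, rose (0.87, adjusted p = 5.45e-05). Of 19 proliferation markers 3 fell and 3 rose (31.6%, close to the share of all genes), with a median of 0.02. CCNA2 (-0.45, adjusted p = 0.00117) and BUB1 (-0.41) were lower, while TYMS (0.35) and MKI67 (0.24, adjusted p = 0.0128) were higher. The part of the cell cycle in the CEP values was not tested. For the line, VIM and CD44 were expected to be bright and ESR1, PGR and ERBB2 dim. Centred values carry no level, so only the coarse signal class could be read. It placed VIM, CD44, ESR1 and ERBB2 alike in the brightest class and PGR in the next. The expectation for ESR1 and ERBB2 was not met, and the reason was not tested. The markers therefore do not settle the label of the line.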

How the data were processed

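The deposited log2 values come from RMA, per the submitters' processing notes, which give no version. Further steps were not given in the sources used here. Each of the 54675 probe sets has a median of 0 over the 6 arrays, which was read from the values and removes levels. The signal class was read from the numeric step of the single-precision values, and 15.9% of the brightest class had a coarser step than that level leaves. Gene names are those of the platform annotation (41097 with a single gene, 1801 with several, 11777 with none), and 62 manufacturer controls were left out. A gene's value averages those single-gene probe sets that fall in its brightest signal class, with _x_at probe sets only where it had no other.

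Groups were compared by lmFit and eBayes of limma 3.58.1 under R 4.3.3, without covariates and 2-sided, with Benjamini-Hochberg adjustment over 19777 genes, or over 54613 probe sets. The code was tested on simulated data. Precision is limited by 3 arrays a group. The median SE of a CEP gene was 0.072.

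The members, lists and tests were chosen with earlier results of these data known. The rule for named genes took SDC1, every CEP gene and, from each list, at most the 4 genes of lowest p. The alternatives tried were all probe sets averaged, _x_at probe sets included, the class from 6 arrays, no dim genes, a robust prior, median and quantile scaling, a replicate block, the spike-in set as a block or alone, single probe sets and leaving out each array.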

Additional observations from a re-analysis of the deposited data

How the results depend on the processing

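With a replicate block 12 CEP genes were lower and 4 higher, and 45 list genes were called, against 13, 3 and 52 without it. With the spike-in set as a block the counts were 12, 3 and 44, and CEP295 was the CEP gene that lost its call. Deviations of same-numbered arrays, across all genes, correlated with r of 0.01, 0.08 and 0.10. Control replicates 2 and 3 each correlated best with the silenced array of their own number. Control replicate 1 correlated best with silenced replicate 2 (0.04). All of these values are low, and whether same-numbered arrays were paired is not settled by them. Leaving out 1 array gave 9 to 12 lower and 2 to 4 higher CEP genes, and 35 to 46 list genes. Within spike-in set 1, 5 CEP genes were lower, 0 higher and 18 list genes called, and within set 2 the counts were 2, 0 and 13, in limma fits on 3 arrays. These fits hold fewer arrays. The share of all genes called in each of these settings is not given here. A loss particular to the CEP genes can therefore not be read from the counts. Of the 16 called genes, 10 kept their call in all 9 settings that use every array and in all 6 fits that leave one out (CEP19, CEP135, CEP126, CEP70, CEP63, CEP55, CEP85, CEP57, CEP78 and CEP250). CEP97, CEP290, CEP295, CEP85L, CEP120 and CEP72 each lost it at least once. Where the gene or the alternative was called, the sign turned with cross-hybridising probe sets included for CEP44 (-0.31), and for single probe sets fitted alone: 0.0212 for a probe set of CEP290, 0.0263 and 0.22 for a pair of CEP70, 0.0501 and 0.30 for a pair of CEP295, 0.37 for one of CEP43, -0.52 for one of CEP89, -0.44 for one of CEP41, and -0.34 and -0.28 for a pair of CEP44. In 29 other alternatives over 9 genes the sign turned with neither value called, as for CEP41 (-0.11) and CEP89 (-0.04) with the class read from 6 arrays. The cause was not tested. The deposited values hold no background signal, so which dim probe sets were detected is not known.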

Other observations

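Relatives outside the symbol rule add a few values. CEP170B, from 1 probe set marked as cross-hybridising, measured -0.23, -0.10 and -0.12 on the SDC1 siRNA arrays, against 0.21, 0.16 and 0.10 on the control siRNA arrays, with a fitted log2 difference of -0.30 (SE 0.064, adjusted p = 0.00788 over all genes, limma). CEP170 shares its 3 probe sets with the pseudogene CEP170P1, and these gave 0.03, 0.03 and 0.05 with adjusted p from 0.752 to 0.917 over all probe sets. CEP57L1 gave -0.06 (adjusted p = 0.589), beside -0.27 for CEP57. All of them were picked for mention with their values known.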
